A study of Homo sapiens with 2 samples.

Results

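The heat shock and chaperonin genes are the members of the protein folding families whose transcripts were examined here for IGF2BP3 binding. They were taken by name from GENCODE 44, as protein-coding genes whose symbol starts with HSPA, HSPH, HSP90, DNAJ, or CCT and a digit, together with TCP1, HSPD1 and HSPE1. The rule found 75 of 20046 protein-coding genes, namely 14 HSPA genes, 4 HSP90 and HSPH genes, 45 DNAJ genes, 10 CCT genes with TCP1, and the pair HSPD1 and HSPE1. Because the rule reads names, it also took genes whose products do not act in heat shock, and the read-through locus DNAJC25-GNG10.

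Binding was mapped by LACE-seq, in which RNA is crosslinked to protein by UV light and pulled down with an antibody before the cDNA ends are amplified linearly and sequenced. Both samples came from OE-19, a human cell line established from an esophagogastric junction adenocarcinoma, and the labels name neither a treatment nor a genotype. They form 1 group of 2 replicates with an IGF2BP3 antibody, and neither input nor IgG was analysed here. As a result, no difference between conditions could be tested, and strong binding and high abundance of an RNA cannot be told apart. Replicate 1 had 21142 peaks and replicate 2 had 20799, and the labels do not say whether the replicates were separate cultures. The peaks carry no strand and were read on the strand of the gene.

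Peaks over markers of cell types were also counted. All 6 epithelial markers examined (KRT8, KRT18, KRT19, EPCAM, CDH1 and ERBB2) had a pair of overlapping exon peaks, 1 from each replicate. Such a pair was present in 28.0% of all protein-coding genes. Of 6 markers of mesenchymal, immune and endothelial cells, none had an exon peak in both replicates, against 31.6% of all protein-coding genes. COL1A1, a fibroblast collagen, had 1 peak in replicate 2, and VIM, COL3A1, PTPRC, PECAM1 and CD3E had none. A marker without a peak cannot be called absent from the cells, since the abundance of the transcripts was not analysed here.

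IGF2BP3 is an RNA-binding protein that coats mRNAs and affects their stability and translation, and it has been described as a reader of the RNA mark m6A. Chaperones keep other proteins folded. Hsp70 proteins, encoded by HSPA genes, bind short unfolded stretches, and J-domain proteins, encoded by DNAJ genes, bring them their clients and stimulate their ATPase. Hsp90 proteins act later on near-native clients such as kinases, the cytosolic chaperonin TRiC folds actin and tubulin in a closed chamber built from CCT subunits, and HSPD1 and HSPE1 form the mitochondrial chaperonin and its lid.

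IGF2BP3 peaks lay over the exons of 39 of the 75 genes in replicate 1 and 40 in replicate 2. In replicate 1 this was 52.0% of the genes, against 37.3% of all protein-coding genes, and in replicate 2 it was 53.3%, against 39.0%. In both replicates an exon peak was present in 35 genes, which is 46.7% (Wilson 95% interval 35.8 to 57.8) against 31.6% of all protein-coding genes. In 31 genes (41.3%) the peaks of the replicates overlapped, against 28.0% of all. No exon peak was found in either replicate for 31 of the 75 genes, against 11081 of all 20046. Each share of genes with a peak stood above its background, but genes are not replicates and these values describe the pair of lists. The median exonic length was 4895 bp for the chaperone genes and 4416 bp for all genes, and the abundance of the transcripts was not analysed here.

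The families were then counted separately. All 4 HSP90 and HSPH genes had an exon peak in both replicates. Among HSPA genes 7 of 14 did, among CCT genes with TCP1 5 of 10, among DNAJC genes 13 of 29, among DNAJB genes 4 of 12, and among DNAJA genes 1 of 4. With so few genes per family these intervals are wide, from 51.0% to 100% for the HSP90 and HSPH genes, 26.8% to 73.2% for the HSPA genes, 28.4% to 62.5% for the DNAJC genes and 13.8% to 60.9% for the DNAJB genes. The intervals of all families overlapped, so an order between them was not detectable. Of the 44 genes with an exon peak in either replicate, 9 had it in a single replicate (20.5%, against 29.3% of all protein-coding genes with a peak), and all 9 were DNAJ genes. Of these, DNAJB2, DNAJB14, DNAJC10 and DNAJC25-GNG10 had peaks in replicate 1, and DNAJA1, DNAJA3, DNAJB9, DNAJB11 and DNAJC22 in replicate 2.

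**Figure D1:**
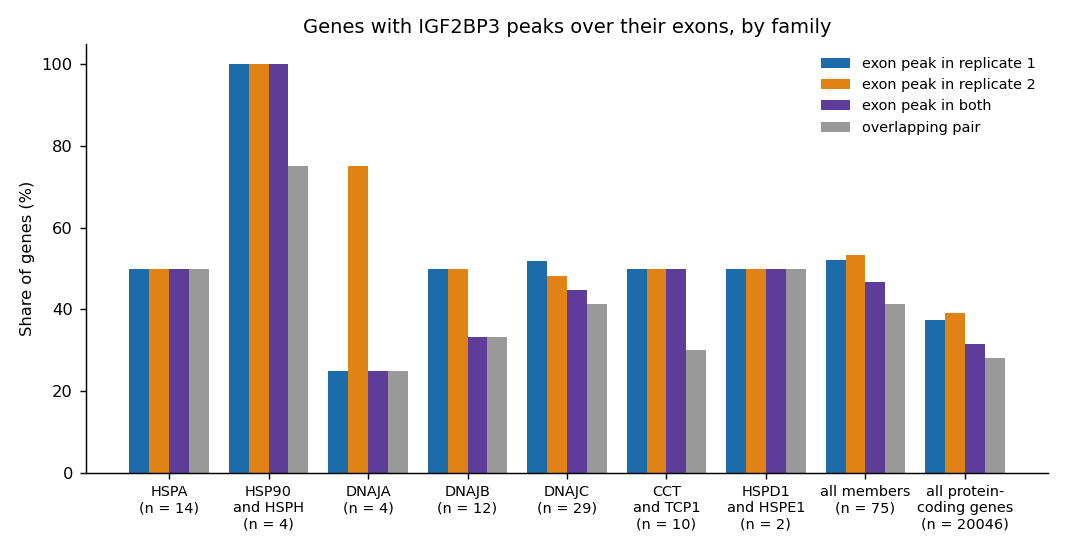
Share of genes (%) with an IGF2BP3 peak over an exon, by gene family, with the number of genes in brackets. Bars stand for replicate 1, replicate 2, both replicates, and a pair of peaks that overlap between replicates. All 4 HSP90 and HSPH genes had peaks in both replicates, and the share in both was 46.7% over all 75 chaperone genes and 31.6% over all protein-coding genes.

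The peaks on the chaperone genes were of ordinary strength. Replicate 1 had 66 exon peaks on these genes and replicate 2 had 73. Their median fold enrichment, the ratio of reads at the summit to the local background with 1 added to each, was 6.78 and 7.31 (7.05 ± 0.370, SD, n = 2), and over all exon peaks of protein-coding genes it was 6.82 and 7.11. Library totals are unknown, but the deposited fold and p-value of a peak together give the whole number of reads piled up at its summit. The median pileup was 23 and 20 reads, with ranges of 7 to 84 and 5 to 135, against medians of 24 and 23 reads over all exon peaks. The highest folds on the chaperone genes were 15.7 and 17.2, and those of all exon peaks, which include them, were 25.3 and 26.9. In replicate 1, 12 of 66 were above the upper quartile of all peaks of the list by fold and 19 in its lowest range, at or below the lower quartile, and in replicate 2 each of these ranges held 15 of 73.

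In replicate 1, 44 of the 66 peaks (66.7%, Wilson interval 54.7 to 76.8) overlapped a peak of the other replicate, and in replicate 2, 44 of 73 (60.3%, interval 48.8 to 70.7). Over all exon peaks these shares were 61.9% and 61.5%. The overlapping peaks were deeper than the others, with a median of 30 against 17 reads in replicate 1 and 24.5 against 16 reads in replicate 2. They formed 44 pairs on 31 genes, of which CCT3 held 5, 9 genes held 2 and 21 genes held 1. The summits of a pair were a median of 29 bp apart, and in 30 pairs they were within 50 bp. Across the 44 pairs the fold enrichments of the replicates had a Spearman's rho of 0.60 and a Pearson's r of 0.68, and the pileups a rho of 0.85, as a description across peaks that come from the same libraries. In 29 pairs the fold was higher in replicate 2, and in 7 pairs the replicates differed by more than 1.5 times.

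**Figure D2:**
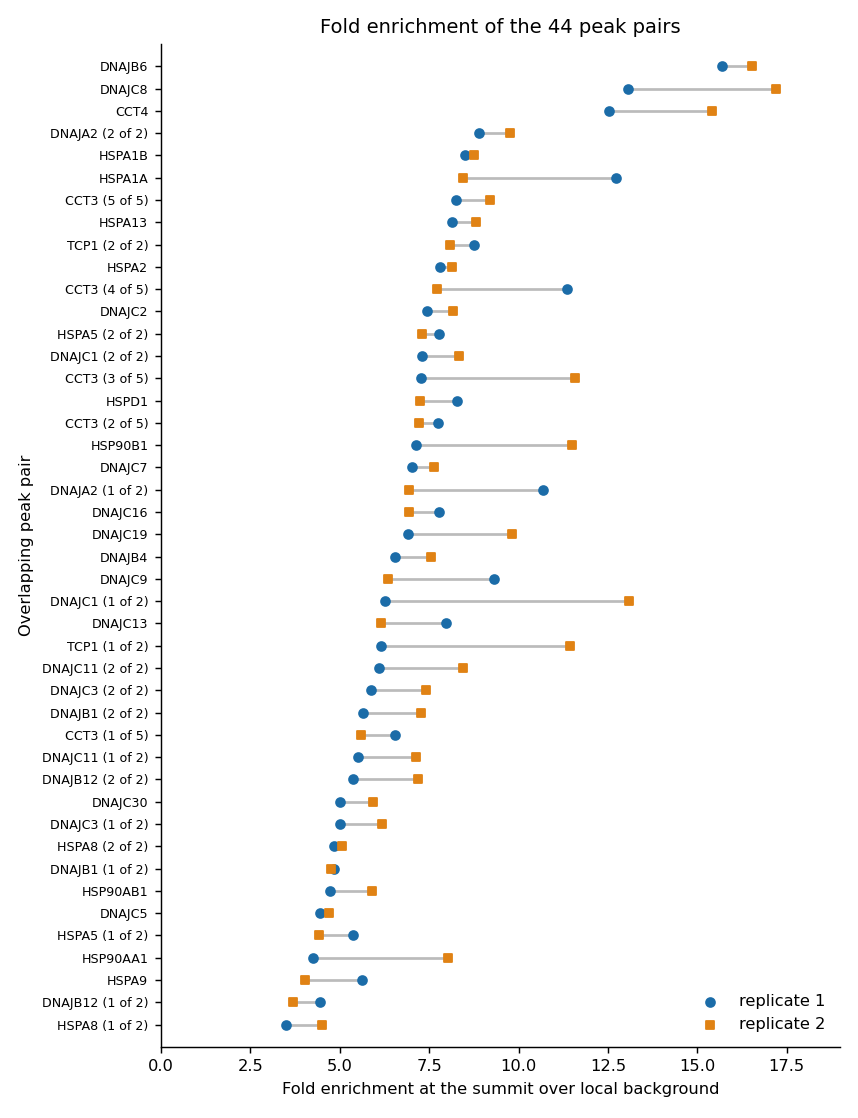
Fold enrichment at the summit over the local background for the 44 peak pairs that overlapped between replicates, ordered by the lower value. Circles are replicate 1, squares are replicate 2, and a grey line joins the pair. DNAJB6, DNAJC8 and CCT4 had the highest lower values, and the HSPA8 and DNAJB12 pairs were among the lowest.

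The HSPA genes are described first. HSPA5 encodes BiP, the Hsp70 of the endoplasmic reticulum, and had the deepest peaks of any chaperone gene. A pair of peaks at chr9:125240744-125241496 covered the 5′ UTR and the start codon in exons 1 and 2, with 84 reads at the summit in replicate 1 and 135 in replicate 2. Its −log10 q of 65.8 in replicate 2 was the highest of all peaks on these genes, whereas its fold was 7.77 and 7.31, since the local background was 9.93 and 17.6 reads. The deepest peaks thus had a fold near the median. The start of the coding sequence under both peaks (chr9:125241046-125241126, minus strand, hg38) is shown to place the site, with the start codon in capitals.
HSPA5: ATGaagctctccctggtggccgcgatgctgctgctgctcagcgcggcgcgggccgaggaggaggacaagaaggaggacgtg
A second pair on HSPA5 lay in exon 8, at the end of the coding sequence, with 60 and 89 reads and folds of 5.36 and 4.42. Of the 31-base words of this peak, 51.1% in replicate 1 and 51.2% in replicate 2 occur more than once in the genome. In the processed pseudogene HSPA5P1 29.4% and 29.6% of the words were found, and neither replicate had a peak over it.

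HSPA8 encodes Hsc70, the constitutive cytosolic Hsp70, and HSPA9 encodes mortalin, the mitochondrial one. The peaks on HSPA8 were deep and of low fold. Over exons 5 and 6 the replicates had 78 and 69 reads and folds of 4.85 and 5.07, and from exon 7 onwards they had 56 and 61 reads and folds of 3.50 and 4.50. The local background under these peaks was 12.8 to 15.3 reads, against a median of 2.24 and 1.68 reads over the members' peaks. The HSPA8 peaks also ran over the introns between these exons of the canonical transcript. These introns hold the small nucleolar RNAs SNORD14C, SNORD14D and SNORD14E on the same strand. In replicate 1 the summit of the exon 5 to 6 peak lay within SNORD14C, and in replicate 2 the summit of the peak from exon 7 onwards lay within SNORD14E. The other 2 summits lay outside these RNAs. Between 18.6% and 32.2% of the words of the HSPA8 peaks occur more than once in the genome. In the processed pseudogene HSPA8P1 18.1% and 18.6% of the words of the exon 5 to 6 peaks were found, and each replicate had 1 peak over it. The processed pseudogene HSPA8P8 held 10.7% and 11.0% of these words and had 1 peak over it in replicate 1.

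HSPA9 had a pair over the stop codon and the 3′ UTR in exon 17, with 35 and 23 reads and folds of 5.63 and 4.02. Replicate 2 alone had 3 further peaks, over the start codon in exon 1 (fold 8.39), over exons 6 and 7 (6.06), and over an alternative exon beside SNORD63 (5.97). HSPA13, an Hsp70 without the peptide-binding domain, had a pair in the coding part of exon 5 with folds of 8.13 and 8.82 and 35 and 20 reads. The replicates thus gave close folds at HSPA13 and differed by more at HSPA9.

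HSPA1A and HSPA1B, the stress-inducible Hsp70 genes, lie near each other on chromosome 6 and encode nearly the same mRNA. Their coding sequences, of 1926 nt each, differ at 4 positions, namely G1710T, G1860C, C1905T and A1920G, with the base of HSPA1A first, then that of HSPA1B, counted from the first base of the start codon. HSPA1A had a pair with folds of 12.7 and 8.44 and with 58 and 65 reads. The replicate 1 peak reached from coding position 1065 to 1645, and the replicate 2 peak, at 1852 bp the widest of these genes, reached from upstream of the gene to coding position 1607. Neither covered any of the 4 differing coding bases, and 100% and 87.1% of their 31-base words occur more than once. The UTRs and the upstream sequence, which the replicate 2 peak also covered, were not compared base by base. HSPA1B had a pair with folds of 8.51 and 8.76 and 13 and 16 reads, at coding positions 1491 to 1792 and 1496 to 1804. These peaks covered position 1710, whereas 88.6% and 88.9% of their words are also found in HSPA1A. The copies around that position (chr6:31817436-31817496 in HSPA1A, chr6:31829630-31829690 in HSPA1B, plus strand, hg38) are printed to show how little sequence separates the genes, with the differing base in capitals.
HSPA1A: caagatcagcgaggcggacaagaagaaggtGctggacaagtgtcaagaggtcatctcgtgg
HSPA1B: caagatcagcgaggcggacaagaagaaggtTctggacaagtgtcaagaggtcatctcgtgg
Reads that match both genes could have been placed on either, so the split of the peaks between HSPA1A and HSPA1B is uncertain. A further peak of replicate 2 lay over the 5′ UTR of HSPA1B and upstream of it (fold 7.97, 14 reads), where 11.5% of the words are repeated.

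HSPA2, the Hsp70 best known from testis, had a pair with folds of 7.80 and 8.13 and 10 reads in each replicate. It lay on an alternative upstream exon, also touched an exon of ENSG00000259160 on the other strand, and included no base of the canonical HSPA2 transcript. No exon peak was found on the other 7 HSPA genes. These were the stress-inducible HSPA6, the HSPA1A neighbour HSPA1L, the Hsp110-type exchange factors HSPA4 and HSPA4L, the ribosome-associated HSPA14 and the distant relatives HSPA12A and HSPA12B. HSPA14 had 1 peak outside its exons in replicate 2. Whether these transcripts are present in OE-19 cells was not analysed here.

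**Figure D3:**
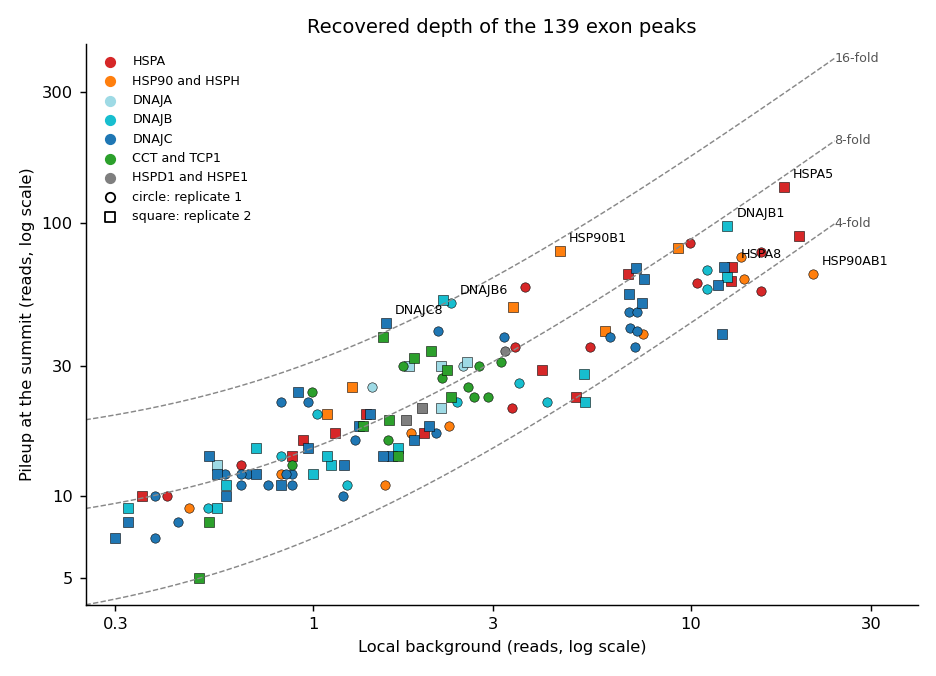
Pileup at the summit against the local background, both in reads on log scales, for the 139 exon peaks of the chaperone genes in both replicates. Colours mark gene families, circles are replicate 1 and squares replicate 2, and dashed lines give a fold enrichment of 4, 8 and 16. HSPA5 reached 135 reads over a background of 17.6, whereas DNAJB6 reached 51 and 52 reads over backgrounds of 2.31 and 2.20.

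The peaks of the Hsp90 genes ranged from 9 to 81 reads and from a fold of 2.99 to 14.6. HSP90AB1, the constitutive cytosolic Hsp90, had a pair over exon 1, in the 5′ UTR and the intron beside it, with 39 and 40 reads and folds of 4.72 and 5.91. In replicate 1 alone it had a peak over exons 5 and 6 with 65 reads and a fold of 2.99, the lowest on these genes, over a background of 21.1 reads. HSP90AA1, the inducible cytosolic form, had a pair in exon 5 with 62 and 81 reads, whose folds of 4.26 and 8.01 differed by more than 1.5 times. Its local background was 13.8 reads in replicate 1 and 9.23 in replicate 2. Of the words of this pair, 24.2% and 19.1% were found in the processed pseudogene HSP90AA2P, over which replicate 1 had 2 peaks. Replicate 1 also had a peak with 75 reads over the stop codon of HSP90AA1 (fold 5.21), and a peak at the far upstream end of the locus that touches WDR20.

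HSP90B1 encodes GRP94, the Hsp90 of the endoplasmic reticulum. Its pair over exon 1 had folds of 7.14 and 11.5 and 12 and 25 reads, and overlapped MIR3652. Elsewhere on HSP90B1 the replicates did not meet. Replicate 1 had peaks on exon 9 (fold 6.39) and exon 12 (5.78), and replicate 2 had peaks on exon 7 (11.4) and exon 17 (14.6). The exon 17 peak held 79 reads, and replicate 1 had no peak there, although it had peaks of 12 to 18 reads elsewhere on this gene. HSPH1, an Hsp110 that exchanges nucleotide on Hsp70, had a peak over the stop codon in replicate 1 (fold 4.70, 11 reads) and over the start codon in replicate 2 (fold 10.1, 20 reads). It therefore counted as present in both replicates without a shared site.

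The cytosolic chaperonin TRiC is built from 8 kinds of subunit, encoded by TCP1, CCT2, CCT3, CCT4, CCT5, CCT6A, CCT7 and CCT8. Exon peaks were found in both replicates for 5 of these genes and overlapped for 3 of them, CCT3, CCT4 and TCP1. Over all protein-coding genes the shares were 31.6% and 28.0%. In the complex the subunits occur in equal numbers. No exon peak was found for CCT5, CCT6A or CCT7. Of the remaining genes of the family, CCT6B had 1 peak outside its exons in replicate 1 and CCT8L2 had none.

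CCT3 had 5 pairs, the most of any chaperone gene, and no peak outside them. They overlapped exons 1, 6, 9, 12 and 14 of 14, but only 14.5% to 58.6% of each peak was exonic. At exons 9 and 12 the summits of both replicates lay in introns, and so did the exon 6 summit of replicate 2. The exon 6 summits were 210 bp apart. Over exon 1, with the start codon, the folds were 7.27 and 11.6, over exon 6 they were 11.4 and 7.73, and over exon 9 they were 6.55 and 5.61. Over exon 12 they were 7.74 and 7.22, and over exon 14, with the stop codon, they were 8.26 and 9.19. The pileups were 23 to 31 reads in replicate 1 and 14 to 32 in replicate 2. Replicate 1 was higher at exons 6, 9 and 12 and replicate 2 at exons 1 and 14, so neither replicate was higher throughout. The end of the coding sequence (chr1:156309199-156309279, minus strand, hg38) is shown with the stop codon in capitals, since both replicates covered it.
CCT3: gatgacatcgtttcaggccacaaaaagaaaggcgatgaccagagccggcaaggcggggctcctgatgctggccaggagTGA

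CCT4 had the highest folds of the chaperonin genes. Its pair lay over exon 1 with folds of 12.5 and 15.4 and 24 and 38 reads. These peaks reached 210 and 216 bp beyond the annotated start of CCT4, into COMMD1, which starts next to it on the other strand, so the gene of the RNA is uncertain without a strand. TCP1 had a pair over exon 1 with folds of 8.76 and 8.08, likewise shared with the neighbouring MRPL18, and a pair at exon 9 with folds of 6.15 and 11.4. The exon 9 peaks also covered SNORA20, a small nucleolar RNA in the intron next to it, and the summit lay within SNORA20 in replicate 1 but not in replicate 2. CCT2 had peaks on exon 15 in replicate 1 (fold 7.45, 13 reads) and exon 1 in replicate 2 (−log10 q 2.47, the lowest on these genes, 5 reads). CCT8 had them on exon 12 in replicate 1 (fold 6.58, 16 reads) and exon 1 in replicate 2 (fold 5.89, 8 reads). For both genes the later exon was found in replicate 1 and exon 1 in replicate 2.

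HSPD1, the mitochondrial Hsp60, had a pair over the stop codon in exon 12 with folds of 8.29 and 7.24 and 34 and 19 reads, whose summits were 1 bp apart. Of the 31-base words of these peaks, 77.7% and 79.2% occur more than once in the genome, and 27.7% and 28.3% were found in the processed pseudogene HSPD1P1, over which neither replicate had a peak. Replicate 2 had a further peak over exon 1 (fold 7.48, 21 reads). HSPE1, which encodes the lid of the same chaperonin and starts next to HSPD1 on the other strand, had no exon peak. The end of the HSPD1 coding sequence (chr2:197487046-197487126, minus strand, hg38) is printed because both peaks covered it, with the stop codon in capitals.
HSPD1: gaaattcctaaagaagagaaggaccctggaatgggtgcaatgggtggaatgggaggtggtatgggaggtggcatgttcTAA

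**Figure D4:**
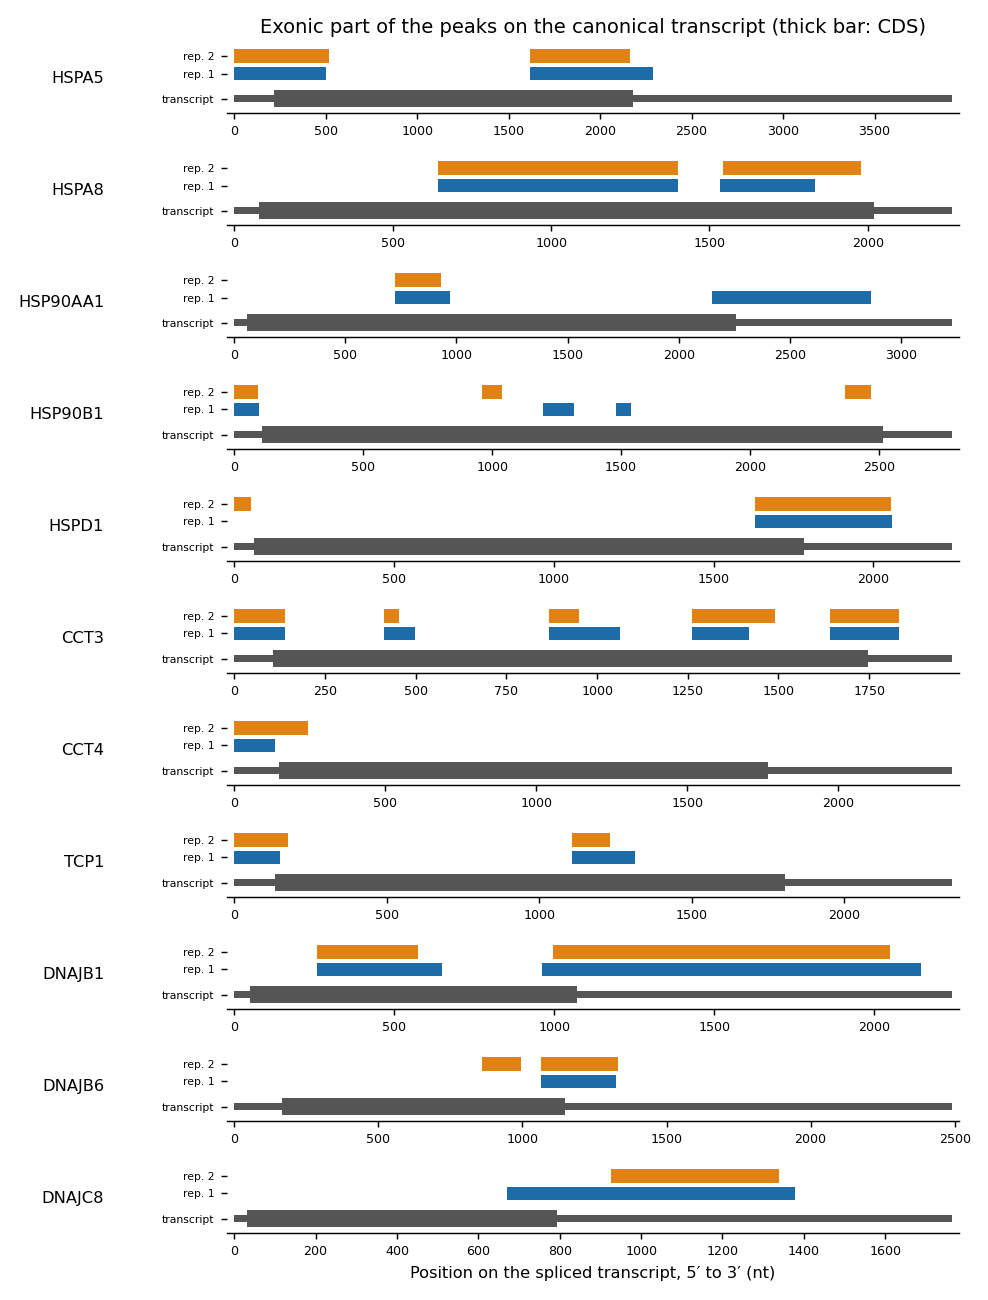
Exonic part of the peaks of replicate 1 (blue) and replicate 2 (orange) on the canonical spliced transcript of 11 chaperone genes, in nt from the 5′ end, with the coding sequence as the thick bar. CCT3 had 5 places where the replicates met, HSP90B1 had 1 at the 5′ end, and the DNAJB6, DNAJC8 and HSPD1 pairs lay at the end of the coding sequence or in the 3′ UTR.

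Of the 45 DNAJ genes, 18 had exon peaks in both replicates, 17 had an overlapping pair and 18 had no exon peak. Over all 20046 protein-coding genes, 31.6% had exon peaks in both, 28.0% had an overlapping pair and 11081 had no exon peak. Pairs were ranked by the lower of their 2 folds. The highest of all the chaperone genes was that of DNAJB6, a J-domain protein that holds back protein aggregation. It lay in exon 10 of 10 over the end of the coding sequence and the start of the 3′ UTR, with 51 and 52 reads over a background of 2.31 and 2.20, and folds of 15.7 and 16.5 (16.1 ± 0.600, SD, n = 2). Among all peaks of its list this was the 98.5th percentile of fold in replicate 1 and the 98.4th in replicate 2. The depth and the fold of the replicates were nearly equal, and no word of these peaks occurs elsewhere in the genome. By other measures the order changed. The HSPA5 pair over its start codon was deeper, with 84 and 135 reads, and in replicate 2 its −log10 q was 65.8 against 48.0 for DNAJB6. The DNAJB6 coding end under both of its peaks (chr7:157416018-157416098, plus strand, hg38) is shown with the stop codon in capitals, as the shared site with the highest lower fold.
DNAJB6: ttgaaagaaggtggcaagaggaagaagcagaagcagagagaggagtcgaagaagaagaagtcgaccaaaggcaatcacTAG

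DNAJC8, a J-domain protein associated with splicing, came second by the lower fold. Its pair lay in the 3′ UTR of exon 9, with folds of 13.1 and 17.2 and 40 and 43 reads. DNAJA2, a cytosolic partner of Hsp70, had a pair on exon 9 (folds 8.88 and 9.76, 30 reads in each) and a pair on exon 3 (folds 10.7 and 6.93, 25 and 21 reads). DNAJC2, which acts with Hsp70 at the ribosome, had a pair over exons 8 and 9 with folds of 7.43 and 8.18. The canonical exon bases under all these pairs were in the coding sequence or downstream of it. DNAJC1, an endoplasmic reticulum J-domain protein, had a pair on exon 11 with folds of 7.30 and 8.34, and a pair on exon 1 whose folds of 6.25 and 13.1 were the furthest apart of all 44 pairs.

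Among the other named DNAJ genes, the pairs held between 7 and 68 reads. DNAJC7, which binds Hsp70 and Hsp90 through TPR repeats, had folds of 7.03 and 7.62 and 12 reads in each replicate. DNAJC16 had folds of 7.77 and 6.93, DNAJC19, a part of the mitochondrial import motor, had folds of 6.92 and 9.81, and DNAJC13, an endosomal protein, had folds of 7.97 and 6.15, all with 14 reads or fewer. DNAJC13, with 56 exons, had 5 peaks in replicate 1 and 2 in replicate 2, of which only those at exon 52 met. At DNAJC9, which binds histones, the folds were 9.30 and 6.35 and the pileups 38 and 13 reads, and 42.8% and 50.8% of the words are also found in the processed pseudogene ENSG00000235036, over which replicate 1 had 1 peak. DNAJC11, a mitochondrial protein, had 2 pairs in the 3′ UTR, the stronger with folds of 6.11 and 8.44 and 47 and 68 reads, and both overlapped exons of THAP3 on the other strand. The DNAJB4 pair (6.55 and 7.56, 9 reads in each) lay at the start of FUBP1 and touched no base of the canonical DNAJB4 transcript.

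The 5 remaining DNAJ genes with a pair were DNAJB1, DNAJB12, DNAJC3, DNAJC5 and DNAJC30. DNAJB1, the stress-inducible Hsp40, had 67 and 97 reads over the stop codon and the 3′ UTR with folds of 5.66 and 7.26, in peaks of 1185 and 1055 bp. Its second pair in exon 2 had 57 and 63 reads and folds of 4.83 and 4.75. DNAJC3, which acts with BiP, had 2 pairs in exon 12, with a mean fold of 5.59 ± 0.841 (SD, n = 2) at the stop codon and folds of 5.87 and 7.41 in the 3′ UTR. DNAJC5, which coats secretory vesicles, had a pair in the 3′ UTR with folds of 4.45 and 4.70 and 35 and 59 reads. DNAJB12, of the endoplasmic reticulum membrane, had folds of 5.38 and 7.18 at the start codon and 4.46 and 3.69 in the 3′ UTR, and the DNAJC30 pair had a mean fold of 5.46 ± 0.661 (SD, n = 2). Across all families, 17 peaks of 9 genes in replicate 1 and 18 peaks of 10 genes in replicate 2 had a local background above 5 reads. Their median folds were 5.21 and 5.59, against 7.43 and 7.73 for the other peaks of these genes. The fold divides by the background, so a higher background lowers it at the same pileup. The 75th percentile of the background of all exon peaks was exceeded by 17 of 66 and 19 of 73 chaperone peaks. High backgrounds were thus about as frequent on these genes as over all exon peaks.

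DNAJC14 had a peak in each replicate, on exon 2 in replicate 1 (fold 5.79) and exons 6 and 7 in replicate 2 (5.73), with no shared site. Among the 9 DNAJ genes with peaks in a single replicate, the highest folds were those of DNAJB2 in replicate 1 (10.4, 20 reads) and DNAJB9 in replicate 2 (9.38, 15 reads). These were about as strong as the named pairs, but the other replicate had no peak there. The DNAJB9 summit lay upstream of the gene, and the peak also touched exons of PNPLA8 and THAP5 on the other strand. No exon peak was found on DNAJA4, DNAJB5, DNAJB7, DNAJB8, DNAJB13, DNAJC4, DNAJC5B, DNAJC5G, DNAJC6, DNAJC12, DNAJC15, DNAJC17, DNAJC18, DNAJC21, DNAJC24, DNAJC25, DNAJC27 and DNAJC28.

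The position of the peaks on the transcripts was compared with that of all exon peaks. Coding sequence was covered by 77.3% (interval 65.8 to 85.7) and 75.3% (64.4 to 83.8) of the chaperone peaks, and by 76.1% and 76.4% of all exon peaks. A stop codon of any transcript was covered by 24.2% and 19.2%, against 19.6% and 17.8%. A start codon was covered by 18.2% (10.7 to 29.1) and 26.0% (17.3 to 37.1), against 12.8% and 17.8%. Peaks in the 3′ UTR without coding sequence made up 12.1% and 8.22%, against 17.9% and 13.5%, and those in the 5′ UTR 6.06% and 11.0%, against 4.23% and 8.21%. Each value for all exon peaks lay within the interval of the chaperone peaks, so with this number of peaks no difference in position was detectable. On the canonical transcripts, 8 of the 44 pairs covered the stop codon in both replicates, those of CCT3, DNAJB1, DNAJB6, DNAJC3, DNAJC9, DNAJC19, HSPA9 and HSPD1, and 4 covered the start codon, those of CCT3, DNAJB12, HSPA5 and TCP1. A further 20 pairs shared at least some coding sequence, 6 shared 3′ UTR but no coding sequence, 4 shared 5′ UTR but no coding sequence, and 2 touched no canonical exon. These classes count canonical exon bases only, and a shared stretch could also hold intron or sequence outside the gene. At exon 6 of CCT3, 43 of the 292 shared bp were coding, and at HSPA1A all 543 were.

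The replicates differed at exon 1. Among the 68 chaperone genes with more than 1 exon, 9 had a peak over exon 1 in replicate 1 and 19 in replicate 2. In both replicates 8 genes had one (CCT3, CCT4, DNAJB12, DNAJC1, HSP90AB1, HSP90B1, HSPA5 and TCP1). DNAJC11 had it in replicate 1 only, and 11 genes had it in replicate 2 only, CCT2, CCT8, DNAJA1, DNAJA2, DNAJB9, DNAJB11, DNAJC2, DNAJC3, HSPA9, HSPD1 and HSPH1. The same was seen over all 18916 protein-coding genes with more than 1 exon, of which 10.3% had a peak over exon 1 in replicate 1 and 19.6% in replicate 2. The replicate 2 number was 2.11 times that of replicate 1 for the chaperone genes and 1.89 times for all genes. The GC content within 50 nt of the summits was also higher in replicate 2, with medians of 46.0% and 52.5% for the chaperone peaks and 50.5% and 57.4% for all exon peaks, and its part in the difference was not tested.

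**Figure D5:**
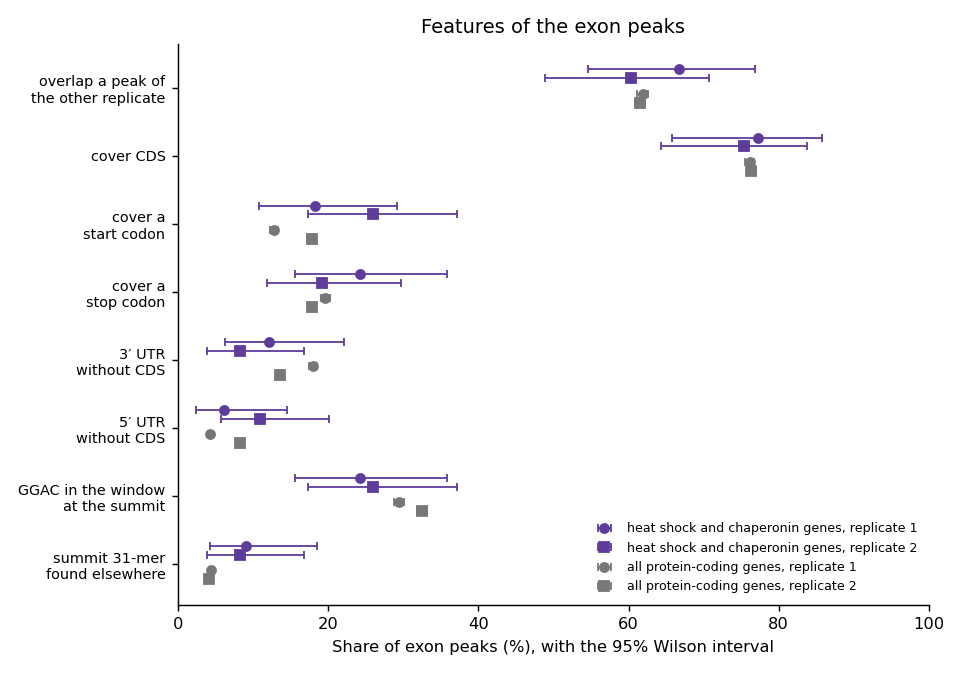
Share of exon peaks (%) with each feature for the chaperone genes (purple) and all protein-coding genes (grey), in replicate 1 (circles) and replicate 2 (squares). Bars are Wilson 95% intervals and cover counting error only. Coding sequence was covered by 77.3% and 75.3% of the chaperone peaks and by 76.1% and 76.4% of all exon peaks.

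GGAC, the core of the sequence at which m6A is often placed, was searched on the gene strand in genomic windows of the summit base and 50 nt on either side of it. It was present in 24.2% (interval 15.5 to 35.8) and 26.0% (17.3 to 37.1) of the chaperone windows, against 29.4% and 32.5% of the windows of all exon peaks. The longer TGGAC, which contains GGAC, was present in 4.55% and 5.48% against 10.1% in both replicates. Both values for all exon peaks lay within the intervals of the chaperone windows for GGAC, and so did those for TGGAC (1.56 to 12.5 and 2.15 to 13.3). AAAAA was present in 13.6% and 15.1% against 11.4% and 8.14%, and in replicate 2 the value for all exon peaks lay below the lower bound of 8.63% of the interval. With windows at the middle of the peak, replicate 2 had AAAAA in 11.0% (interval 5.66 to 20.2) against 9.19%, which lay within the interval. Neither GGAC nor TGGAC was therefore more frequent at the summits of the chaperone peaks than at those of other peaks. Of the 27 pairs that shared at least 50 bp of coding sequence, 7 held TGGAC in it, and no such count was made over all exon peaks. Stretches from 4 genes, chosen because they hold TGGAC, are printed with it in capitals. A match does not show that the adenosine is methylated or bound. Only the DNAJB1 site lay within 50 nt of the summits, and the other printed sites lay further away. They come from DNAJA2 (chr16:46957034-46957094), CCT3 (chr1:156311104-156311178), HSPA8 (chr11:123059613-123059687) and DNAJB1 (chr19:14516845-14516919), all on the minus strand of hg38.
DNAJA2: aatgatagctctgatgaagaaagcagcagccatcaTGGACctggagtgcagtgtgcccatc
CCT3: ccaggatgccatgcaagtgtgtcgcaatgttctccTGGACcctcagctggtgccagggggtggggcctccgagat
HSPA8: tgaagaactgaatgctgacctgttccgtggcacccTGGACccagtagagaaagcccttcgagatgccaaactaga
DNAJB1: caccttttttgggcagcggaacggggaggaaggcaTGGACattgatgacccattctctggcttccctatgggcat

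Chaperone genes have many near copies in the genome, among them processed pseudogenes. The 31-base word at the summit occurred more than once in the genome for 9.09% (interval 4.23 to 18.4) and 8.22% (3.82 to 16.8) of the chaperone peaks, against 4.36% and 4.06% of all exon peaks, which lay within these intervals. At least 50% of the words were repeated in 5 peaks of each replicate, those of HSPA1A, HSPA1B, HSPA5 and HSPD1 in both, with DNAJC25-GNG10 in replicate 1 and DNAJC9 in replicate 2. Of the peaks, 37 of 66 and 46 of 73 held no repeated word. Without the peaks in which at least 50% of the words were repeated, 31 genes rather than 35 had exon peaks in both replicates. For this count too, no share of all protein-coding genes under the same filter is given.

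The exons of a neighbouring gene were touched by 24.2% and 27.4% of the chaperone peaks, and an snoRNA or miRNA gene by 4 peaks in replicate 1 and 5 in replicate 2, on HSPA8, HSP90B1, TCP1 and, in replicate 2, HSPA9. Without the peaks that touched another gene, 27 genes had exon peaks in both replicates. The share of all protein-coding genes under the same filter is not given here, so this count has no matched background. The narrowest peaks of the lists were 293 and 294 bp, so most peaks were wider than a coding exon. A median of 84.7% and 76.8% of each chaperone peak was exonic in at least 1 transcript of the gene. Sequence that was intronic in every transcript was reached by 33 and 32 peaks. On the canonical transcript less can be exonic. The HSPA8 peaks over exons 5 and 6 were 66.1% and 67.7% exonic there, against 100% over all transcripts. Contacts with other genes, exonic shares and reach into introns were not counted over all exon peaks. Whether they are particular to the chaperone genes is therefore not known.

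The co-chaperones and regulators outside the families were examined with a list of 40 genes. Exon peaks were present in both replicates for 22 of them (55.0%, against 31.6% of all protein-coding genes) and overlapped for 19 (against 28.0% of all). In neither replicate did 15 of the 40 have one, against 11081 of all 20046 protein-coding genes. The highest pairs by the lower fold were those of PTGES3 (p23, which holds Hsp90 with its client, folds 16.9 and 18.0), STIP1 (HOP, which bridges Hsp70 and Hsp90, 12.7 and 15.6), CDC37 (which brings kinases to Hsp90, 12.5 and 13.8) and ST13 (Hip, which slows nucleotide release from Hsp70, 10.6 and 12.1). Each of these 4 had the higher fold in replicate 2. The list was chosen for co-chaperones and regulators, so the roles of these genes are not a result. The heat shock factor HSF1 had exon peaks in replicate 2 only, and HSF2 and HSF4 had none.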

How the data were processed

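IGF2BP3 LACE-seq peaks of 2 replicates of OE-19 cells were analysed. The deposited peak lists were called by the authors per replicate on hg38. The submitters' processing notes name fastp, HISAT2 and MACS2, whereas the study's methods name Bowtie, which kept reads with several matches, and Piranha. The layout of the files is that of MACS2, and versions are not given in the sources used here. Per the file layout, the authors deposited for each peak a score (the −log10 of the q-value, times 10). They also deposited a ratio (fold enrichment at the summit over the local background), and the p-value and q-value as −log10. Start, end and summit were deposited in bp.

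Peaks were placed on GENCODE 44 exons of all transcripts with an overlap of at least 1 bp, and codons and UTRs of single peaks were read on the Ensembl canonical transcript, while shares of peaks use all transcripts. The 46 and 36 peaks on sequences outside the annotation were not placed. Coordinates are 1-based. The summit pileup and local background were recovered for every peak as the whole number of reads that gives the deposited fold and p-value under a Poisson distribution. On 832 simulated peaks this returned the pileup in 100% of cases. Every 31-base word of the peaks was counted in the chromosomes of hg38 on both strands. Motifs were searched on the gene strand.

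With 1 group of 2 replicates and no control, no test between conditions was possible, and the replicates are given side by side with the SD. Wilson 95% intervals cover counting error only, and p-values were not computed. All HSPA, HSP90, HSPH, HSPD1, HSPE1 and CCT genes are named, with the 12 DNAJ genes of the largest lower fold over an overlapping pair and the 4 co-chaperones of the largest lower fold. The other DNAJ genes with a pair, or with peaks in a single replicate, were named after their values were seen. The members, lists and measures were chosen with earlier results of these data known. Alternatives varied the overlap, summit position, transcripts, q-value, overlapping genes, repeated sequence, window and replicates. Python 3.11.15, numpy 2.4.6, pandas 2.3.3, scipy 1.17.1, pysam 0.24.0 and matplotlib 3.10.9 were used.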

Additional observations from a re-analysis of the deposited data

How the results depend on the processing

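Of 39 alternative values for 7 results that use both replicates, 33 moved by less than the spread between replicates, or for the gene count by less than 1.5 times. Leaving out peaks that touch an exon of another gene gave a coding sequence share of 82.6% and a stop codon share of 25.3%. Only peaks with the summit in an exon gave a stop codon share of 26.5%. With canonical transcripts alone, the stop codon share was 16.8% and the start codon share 14.9%. Windows at the middle of the peak held GGAC in 32.3%, against 25.1% at the summit, so the chaperone windows were below those of all exon peaks at the summit and close to their 28.5% and 32.1% at the middle. The cause of these moves was not tested.

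Apart from the gene count, the value of a single replicate lies by construction within 1 SD of the mean of 2, so it says nothing about stability. With a single replicate, 39 to 40 genes had an exon peak, 60.3% to 66.7% of peaks overlapped a peak of the other replicate, and 75.3% to 77.3% covered coding sequence, 19.2% to 24.2% a stop codon and 18.2% to 26.0% a start codon. The median fold was 6.78 to 7.31 and GGAC was in 24.2% to 26.0% of windows. Leaving out peaks of which at least 50% was repeated was added after the data were seen and gave 31 genes in both replicates. The count in both replicates ranged from 27 to 34 over the alternatives that use both. No matching shares of all protein-coding genes are given for them. Whether the chaperone share stays above its background under each alternative is therefore not known.

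No paired analysis was possible because the samples form a single group. With 5 to 135 reads at a summit and no library totals, a gene without a peak cannot be called unbound, and the lists hold only peaks above the caller's threshold, with a lowest −log10 q of 2.18 in replicate 1 and 2.15 in replicate 2.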
